A study of Mus musculus with 6 samples.

Results

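Classical monocytes of the mouse heart were taken as the cells that passed a gate on raw UMI counts (a UMI is a molecular tag that marks 1 captured transcript). They were selected on the measured counts of the gate's own genes. A member had at least 3 UMIs of Ly6c2, Chil3 and Ccr2 together and at least 1 UMI each of Plac8 and Csf1r. It had under 10 UMIs of C1qa, C1qb and C1qc, under 2 of the nonclassical markers Ace, Cd300e and Treml4, under 2 of Cd79a and Cd79b, and 0 of the T and NK cell genes Cd3e, Cd3d, Cd3g, Ncr1 and Klrb1c. The gate held 836 of the 32761 cells with at least 200 genes and at most 10% mitochondrial UMIs (2.55%), out of 45904 barcodes. The 4 marker genes Ly6c2, Chil3, Plac8 and Ccr2 summed to between 5021 and 7486 CPM (the UMIs of a gene scaled to a library sum of 1000000) over the members of a library. They summed to between 2219 and 3099 CPM in nonclassical monocytes (at least 2 UMIs of Ace, Cd300e and Treml4) and between 143 and 672 CPM in macrophages (at least 10 UMIs of the C1q genes). The gate chose cells by 3 of these genes and required the fourth, so that order is a description with no test.

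Classical monocytes leave the bone marrow through the chemokine receptor CCR2, circulate in blood, and enter injured tissue, where they can become macrophages or antigen-presenting cells or convert in the circulation to Ly6C-low nonclassical monocytes. Ly6c2 encodes the surface antigen that defines them in the mouse, and Chil3 a chitinase-like secreted protein. Plac8 encodes a small cytoplasmic protein, and Csf1r the receptor for macrophage colony-stimulating factor. STING, encoded by Tmem173, relays the signal of cytosolic DNA from cGAS to TBK1 and IRF3, which switch on type I interferon and, through it, interferon-stimulated genes.

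CD45+ cells (leukocytes) from mouse hearts were profiled by droplet single-cell RNA-seq (10x Chromium 3′ v3, NovaSeq 6000) in 6 libraries, 2 per group. The groups were STING KO RT, C57Bl6J mice labelled STING knockout and titled Tmem that received a single fraction of 12 Gy to the heart from a small animal irradiator, WT RT, wild-type C57Bl6J mice given the same dose, and WT Sham, wild-type C57Bl6J mice given a sham procedure. The labels give the time as 28 days in all groups and libraries of 4500 to 9300 cells, beside 4556 to 9319 barcodes in the files. A sham knockout library was not analysed here, so the effect of the genotype is known in irradiated hearts and the effect of radiation in wild-type hearts. Whether the 2 libraries of a group are different animals is not stated, so a p-value here measures library-to-library spread, in which technical variation may be all there is.

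The 6 libraries held between 31650962 and 59675213 UMIs, and the members between 674061 and 1746264 UMIs per library. Members had medians of 8065 and 7485 UMIs in STING KO RT, 6864 and 5807 in WT RT, and 5826 and 6881 in WT Sham. All kept cells had medians of 7018.5 and 6456 UMIs in STING KO RT, 6491 and 5667 in WT RT, and 4517 and 4764 in WT Sham, so the sham libraries were the shallower ones. Median mitochondrial percentages of members lay between 3.89 and 4.69%. The droplet barcodes shared by 2 libraries numbered 6 to 38 per pair, and no member's barcode was shared with a member of another library. Scrublet marked 5 of the 836 members as doublets, and they were kept. The Tmem173 transcript checks the labels of the knockout only as far as the 3′ tag reaches the altered part, and it did not separate them. Members held 65.9 and 71.0 CPM of Tmem173 in STING KO RT, 75.4 and 89.0 CPM in WT RT, and 59.3 and 66.7 CPM in WT Sham, with a log2 change of −0.35 ± 0.18 (SE) between STING KO RT and WT RT (edgeR adjusted p = 0.447). Directions by genotype below therefore rest on the labels: they are those of the libraries labelled STING knockout.

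A subset of members carried the neutrophil genes S100a8 and S100a9 at high counts and set WT Sham replicate 2 apart. Members with at least 20 UMIs of the pair numbered 28 and 20 in STING KO RT (17.9 and 9.57%), 5 and 7 in WT RT (5.38 and 4.17%), and 3 and 26 in WT Sham (2.80 and 25.2%). They held 89.7 to 99.6% of all S100a8 and S100a9 UMIs of the members, while the median member had 0 to 2. The 7 neutrophil markers, all detected, summed to 10026 and 4794 CPM in STING KO RT, 2749 and 1468 CPM in WT RT, and 647 and 44523 CPM in WT Sham. Without these 89 cells the sums were 91.6 to 345 CPM in every library. Results that rest on them are given with and without them, a choice made after the data were seen, and the part of these cells in the other results was not tested.

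Markers of other cell types were present among the members at different levels. The 5 B cell markers summed to between 167 and 220 CPM, the 5 T cell markers, 3 of them at 0, to at most 6.87 CPM, and the 4 NK cell markers, 3 of them at 0, to at most 4.89 CPM. The gate itself required 0 UMIs of Cd3e, Cd3d, Cd3g, Ncr1 and Klrb1c and limited Cd79a and Cd79b. The low levels of those genes were therefore fixed in advance. The 7 dendritic cell markers, all detected, summed to 90.6 and 170 CPM in STING KO RT, 272 and 174 CPM in WT RT, and 200 and 129 CPM in WT Sham. The 5 endothelial markers reached 856 and 201 CPM in STING KO RT, 91.0 and 28.4 CPM in WT RT, and 254 and 160 CPM in WT Sham. The 7 macrophage markers summed to 304 and 390 CPM in STING KO RT, 309 and 304 CPM in WT RT, and 242 and 214 CPM in WT Sham. The 4 irradiated libraries lay above both sham libraries, although the gate set an upper limit on 3 of the 7. The 5 erythroid markers summed to 4.35 and 2.86 CPM in STING KO RT, 7.11 and 60.7 CPM in WT RT, and 761 and 15.8 CPM in WT Sham, with WT Sham replicate 1 far above the others. The 5 fibroblast markers had 159 and 154 CPM in STING KO RT, 186 and 157 CPM in WT RT, and 151 and 524 CPM in WT Sham. The 4 mural cell markers had 205 and 16.6 CPM in STING KO RT, 8.53 and 19.6 CPM in WT RT, and 23.7 and 47.3 CPM in WT Sham. The part of these other markers in the results was not tested, apart from the fits without dendritic or stromal markers named with a result.

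The gate's own genes varied among libraries, which is given as a description. Chil3 had 2230 and 1614 CPM in STING KO RT, 525 and 1298 CPM in WT RT, and 2472 and 2157 CPM in WT Sham. Both WT RT libraries lay below the other 4, and WT RT replicate 1 held the least. Ccr2 had 1089 and 1140 CPM in STING KO RT, 940 and 1154 CPM in WT RT, and 855 and 616 CPM in WT Sham, so both sham libraries lay below the 4 irradiated ones. Ly6c2 lay between 768 and 1135 CPM and Plac8 between 2403 and 3025 CPM, and the groups overlapped. Most members stood well inside the gate: 599 of 836 had at least 12 UMIs of Ly6c2, Chil3 and Ccr2 together. At the edges, 27 members had exactly 3 of these UMIs and 26 otherwise passing cells had 2. A single Plac8 UMI admitted 37 members, while 240 otherwise passing cells had none. A single Csf1r UMI admitted 215, while 187 otherwise passing cells had none. There were 135 members with 1 nonclassical UMI and 65 otherwise passing cells with 2.

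Classical monocytes made up a larger share of kept cells in the irradiated libraries than in the sham libraries, a difference that the exact permutation test could not call at 2 libraries a group. The share was 2.67% (95% exact binomial interval 2.27 to 3.11) and 3.39% (2.95 to 3.87) in STING KO RT, 2.66% (2.15 to 3.25) and 2.65% (2.27 to 3.08) in WT RT, and 2.28% (1.87 to 2.75) and 1.66% (1.35 to 2.01) in WT Sham. These intervals cover counting error only. Both WT RT libraries lay above both sham libraries just below STING KO RT replicate 1, and further below STING KO RT replicate 2. The means were 3.03 ± 0.511% in STING KO RT, 2.66 ± 0.00799% in WT RT and 1.97 ± 0.440% in WT Sham (SD, n = 2 each). WT RT exceeded WT Sham by 0.690 percentage points and STING KO RT exceeded WT RT by 0.370 (two-sided exact permutation p = 0.333 for each, the smallest that 2 against 2 libraries can give). The gate was set on raw counts, and higher depth moves cells over its lower limits as well as past its upper ones. With each cell thinned to 2000 UMIs before the gate, the means were 1.85 ± 0.501% in STING KO RT, 1.74 ± 0.146% in WT RT and 1.36 ± 0.624% in WT Sham, and the WT RT and WT Sham libraries overlapped (two-sided exact permutation p = 0.667). With a mitochondrial limit of 5% the order of the irradiated groups turned, with means of 4.996% in STING KO RT and 5.98% in WT RT. A share of CD45+ cells cannot tell more monocytes from fewer of the other cells.

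**Figure D1:**
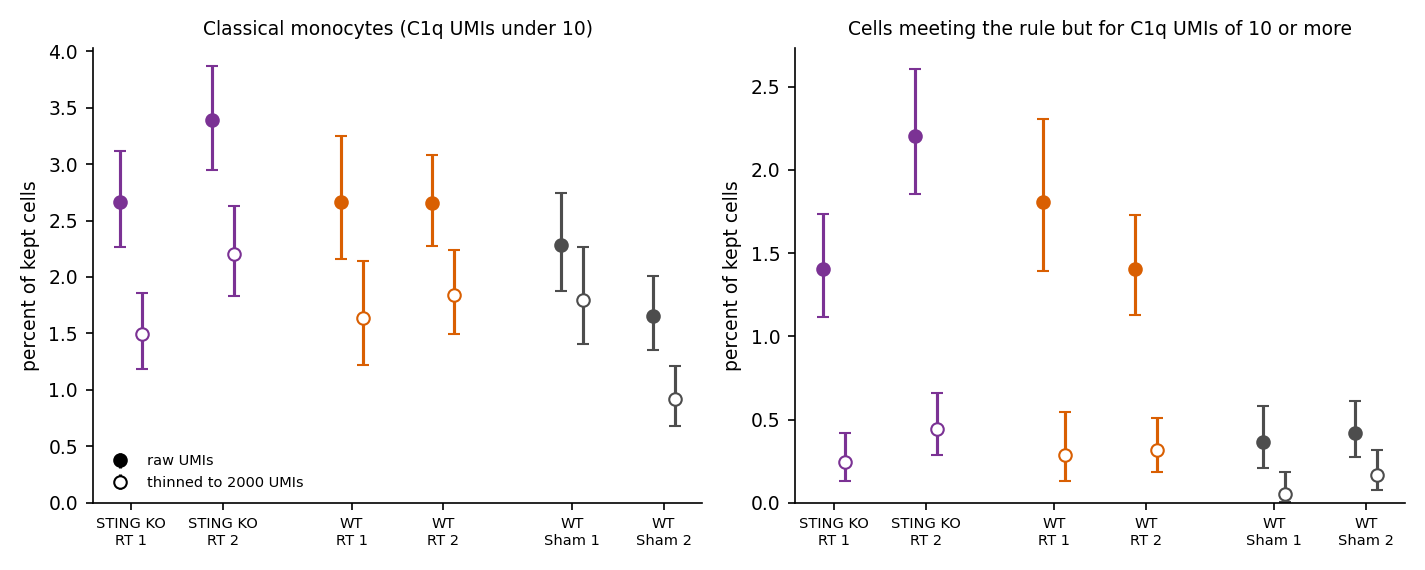
Percent of kept cells in each library (STING KO RT, WT RT and WT Sham, 2 libraries each) that passed the classical monocyte gate (left) and that passed it but for 10 or more C1q UMIs (right), on raw counts (filled) and after thinning (open). Open points are percents of the kept cells with at least 2000 UMIs, each thinned to 2000. Bars are 95% exact binomial intervals. On the left the WT RT libraries stand at 2.66 and 2.65% and the sham libraries at 2.28 and 1.66%; on the right the sham libraries stand at 0.362 and 0.418%, below the 4 irradiated ones.

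Cells beyond the C1q limit were scarcer in both sham libraries than in the 4 irradiated ones. C1qa, C1qb and C1qc encode the recognition subunit of complement and are made by tissue macrophages. Cells that met every other condition but held 10 or more C1q UMIs numbered 82 and 136 in STING KO RT (1.40 and 2.20% of kept cells), 63 and 89 in WT RT (1.80 and 1.40%), and 17 and 26 in WT Sham (0.362 and 0.418%). All 4 irradiated libraries lay above both sham libraries. Relative to every 100 members there were 52.6 and 65.1 such cells in STING KO RT, 67.7 and 52.98 in WT RT, and 15.9 and 25.2 in WT Sham. The group means of 1.80 ± 0.568% in STING KO RT and 1.60 ± 0.282% in WT RT stood against 0.390 ± 0.0396% in WT Sham (SD, n = 2 each; two-sided exact permutation p = 0.333 against sham for each). Among kept cells of at least 2000 UMIs, thinned to 2000, the means were 0.345% in STING KO RT, 0.304% in WT RT and 0.110% in WT Sham. Few of these cells sat close to the limit: 5 had 10 or 11 C1q UMIs, and their median was 44 to 120.5 UMIs per library. Among the members, those with 3 to 9 C1q UMIs made up 16.7 and 20.6% in STING KO RT, 11.8 and 7.14% in WT RT, and 2.80 and 3.88% in WT Sham.

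The members carried a broad myeloid profile beyond the genes of the gate. Of 2065 genes with at least 50 CPM in the members of every library, 1 stood at least 2-fold above both nonclassical monocytes and C1q macrophages in every library against every library. Among genes with at least 50 CPM in every library of both those cell types, 2 stood at least 2-fold lower in classical monocytes than in both. These levels are a description, since the cells were divided by markers from the same counts. The gene above both was Ms4a8a, a member of the tetraspan MS4A family, with a median of 61.1 CPM over the 6 libraries in classical monocytes against 17.7 CPM in nonclassical monocytes and 19.3 CPM in C1q macrophages. Next came Ms4a4c of the same family, with medians of 548 CPM in classical monocytes, 152 CPM in nonclassical monocytes and 51.3 CPM in C1q macrophages. Ifi30, which encodes the lysosomal thiol reductase of antigen processing, had 948 CPM in classical monocytes, 309 CPM in nonclassical monocytes and 403 CPM in C1q macrophages. S100a4, which encodes a calcium-binding protein of motile cells, had medians of 2389.8 CPM in classical monocytes, 979 CPM in nonclassical monocytes and 619.8 CPM in C1q macrophages. The genes below both were Zfp36l1, an mRNA decay factor, with medians of 145 CPM in classical monocytes, 644 CPM in nonclassical monocytes and 503 CPM in C1q macrophages, and Cd36, a scavenger and fatty acid receptor. Cd36 had medians of 38.4 CPM in classical monocytes, 325 CPM in nonclassical monocytes and 299.6 CPM in C1q macrophages.

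After irradiation, classical monocytes of wild-type hearts held more transcripts of the MHC class II genes H2-Eb1 and H2-Ab1 and of the high-affinity IgG receptor gene Fcgr1 than those of sham hearts. They held less Klf9, Retnla, Vcam1 and Clu. Counts were summed over the members of each library and fitted with edgeR's quasi-likelihood test across 7330 genes outside the gate, at a Benjamini-Hochberg adjusted p of 0.05. WT RT against WT Sham gave 8 genes (0.109% of those tested), 4 higher and 4 lower, and 937 genes (12.8%) had an unadjusted p under 0.05. In such sums, fewer cells with a transcript and less of it per cell cannot be told apart, so the number of cells with a UMI is given for genes carried by few cells. Free RNA in droplets also gives UMIs in cells that do not make the transcript. None of the 8 genes was called in the fits without WT RT replicate 1 or without WT RT replicate 2, which hold fewer samples. The log2 changes of H2-Eb1, H2-Ab1, Fcgr1, Klf9 and Retnla kept their direction there and are given with each gene. Without replicate 1 no gene was called, and without replicate 2 the 1 call was Areg, the gene of the growth factor amphiregulin, which was chosen after its values were seen.

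MHC class II molecules present peptides from ingested proteins to CD4 T cells. H2-Aa, H2-Ab1 and H2-Eb1 encode their chains, Cd74 the invariant chain that guides them, H2-DMb1 a chain of the peptide editor, and Ciita the transactivator that drives the set. H2-Eb1 (chr17:34305867-34316674, plus strand, GRCm38) had 1055 and 2178 CPM in STING KO RT, 3455 and 2458 CPM in WT RT, and 797 and 656 CPM in WT Sham. Both WT RT libraries lay above every other library, and STING KO RT replicate 2 came closest. WT RT averaged 2957 ± 705 CPM and WT Sham 726 ± 99.3 CPM (SD, n = 2 each), a log2 change of 2.01 ± 0.29 (SE; edgeR adjusted p = 0.046). H2-Ab1 (chr17:34257689-34269419, plus strand) had 1153 and 2269 CPM in STING KO RT, 3812 and 2476 CPM in WT RT, and 840 and 719 CPM in WT Sham, a log2 change of 2.00 ± 0.29 between WT RT and WT Sham (edgeR adjusted p = 0.046). The other chains had the same order of libraries but did not pass. H2-Aa had 1249 and 2504 CPM in STING KO RT, 4115 and 3010 CPM in WT RT, and 1101 and 812 CPM in WT Sham (log2 1.89 ± 0.29, edgeR adjusted p = 0.0544). Cd74 had 4136 and 7284 CPM in STING KO RT, 12080.5 and 8751 CPM in WT RT, and 3952 and 3095 CPM in WT Sham (log2 1.55 ± 0.25, edgeR adjusted p = 0.0623). H2-Aa and Cd74, like H2-DMb1 and Ciita, were chosen after their values were seen. H2-DMb1 (log2 1.16, edgeR adjusted p = 0.163) and Ciita (log2 1.11, edgeR adjusted p = 0.271) missed the threshold by more.

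Of the 12 genes on the MHC class II list 11 were tested, and 2 rose between WT RT and WT Sham against 0.0546% of all genes tested. All 11 had positive values, with a median log2 change of 1.16 beside −0.02 over all genes tested. Summed over the list, members held 9846 and 16774 CPM in STING KO RT, 26348 and 19376 CPM in WT RT, and 8981 and 7178 CPM in WT Sham. The transcripts were spread unevenly over cells. The 3 cells with most H2-Eb1 held 33.4 and 17.4% of its UMIs in STING KO RT, 24.7 and 27.5% in WT RT, and 64.1 and 60.4% in WT Sham. Every member of at least 2000 UMIs was thinned to 2000, which left out 8 members. The median member then had 6 and 8 UMIs of the list in STING KO RT and 15 and 8 in WT RT. In WT Sham it had 6.5 and 5. The 2 WT RT libraries thus differed by more than WT RT replicate 2 differed from sham.

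The MHC class II calls were lost without single libraries and under tighter gates. H2-Eb1 and H2-Ab1 each passed in 11 of 18 alternative runs, and neither passed at a gate sum of at least 6. Without WT RT replicate 1 the log2 changes were 1.74 for H2-Eb1 and 1.65 for H2-Ab1 (edgeR adjusted p = 0.504 each). Without WT RT replicate 2 they were 2.26 and 2.30 (edgeR adjusted p = 0.131 each), and without WT Sham replicate 2 they were 1.91 and 1.92 (edgeR adjusted p = 0.0665 each). C1q macrophages carry MHC class II genes at high levels, and macrophage markers were higher in all irradiated libraries than in sham. With members of under 3 C1q UMIs only, H2-Eb1 had a log2 change of 1.95 (edgeR adjusted p = 0.149) and H2-Ab1 of 1.94 (edgeR adjusted p = 0.127). In that gate Vcam1 was the 1 gene called. Dendritic cells carry MHC class II genes at high levels. After 174 members with any UMI of the 7 dendritic cell markers were left out, the log2 change of H2-Eb1 was 2.44 (edgeR adjusted p = 0.0298) and of H2-Ab1 2.22 (edgeR adjusted p = 0.0327), and H2-Aa and Cd74 also rose.

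Proximal promoters of 3 MHC class II genes are shown because this set is known to be controlled through shared elements, the X box and the Y box. Of the 3, H2-Eb1 was called between WT RT and WT Sham and H2-Aa and H2-DMb1 were not, and they were chosen after their values and matches were seen. The windows are the 120 bases before the annotated start in RefSeq (build GRCm38.p6), 5′ to 3′ on the gene's strand. Capitals mark matches on either strand to an X box pattern, CNAGNNACNGATG, and to the Y box core GATTGG, which reads CCAATC on the other strand. The 2 patterns do not overlap in these windows. H2-Eb1 lies at chr17:34305747-34305866 (plus strand), H2-Aa at chr17:34287824-34287943 (minus strand) and H2-DMb1 at chr17:34153071-34153190 (plus strand).
H2-Eb1: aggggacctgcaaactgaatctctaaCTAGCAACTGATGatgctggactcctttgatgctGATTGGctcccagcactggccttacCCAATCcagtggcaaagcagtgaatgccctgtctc
H2-Aa: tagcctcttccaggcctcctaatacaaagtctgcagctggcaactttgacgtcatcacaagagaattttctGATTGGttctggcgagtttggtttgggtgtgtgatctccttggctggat
H2-DMb1: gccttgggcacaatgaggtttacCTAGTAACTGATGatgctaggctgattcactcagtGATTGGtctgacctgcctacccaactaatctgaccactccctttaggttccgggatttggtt

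The X box pattern occurs in 0.268% and the Y box core in 16.1% of 32851 RefSeq promoters of 300 bases. Among the 9 genes of the MHC class II list with a promoter in the table, 3 matched the X box pattern (H2-DMb1, H2-Eb1 and H2-Eb2) and 8 the Y box core. The X box begins 94 bases before the start of H2-Eb1 and 97 bases before that of H2-DMb1, with the Y box 60 and 62 bases before it. In H2-Aa the Y box core begins 49 bases before the start. A match describes these letters and is not evidence of binding. Other spellings of these elements were not searched, so the lack of a match is not evidence that a gene lacks the element.

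Fcgr1 encodes the high-affinity receptor for IgG, a gene that interferon-γ induces in monocytes. Fcgr1 (chr3:96282909-96293969, minus strand) had 114 and 139 CPM in STING KO RT, 226 and 266 CPM in WT RT, and 96.4 and 112 CPM in WT Sham. Both WT RT values stood above the other 4. The log2 change between WT RT and WT Sham was 1.22 ± 0.18 (SE; edgeR adjusted p = 0.046). Fcgr1 was also low in STING KO RT, at 127 ± 17.0 CPM against 246 ± 28.3 CPM in WT RT (SD, n = 2 each; log2 −1.04, edgeR adjusted p = 0.0883). The radiation call was lost without WT RT replicate 1 (log2 1.33), without WT RT replicate 2 (log2 1.12), and without STING KO RT replicate 1 or replicate 2. It was also lost without the S100a8 and S100a9-rich cells (log2 1.00, edgeR adjusted p = 0.102), at a gate sum of at least 6 and with under 3 C1q UMIs. Fcgr1 passed in 7 of 18 alternative runs of the radiation comparison.

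Klf9 and Retnla showed the opposite order. Klf9 encodes a Krüppel-like transcription factor that glucocorticoids induce. Klf9 (chr19:23141226-23168134, plus strand) had 62.3 and 76.7 CPM in STING KO RT, 19.9 and 26.4 CPM in WT RT, and 74.2 and 72.8 CPM in WT Sham. Klf9 was lowest in the WT RT libraries. Between WT RT and WT Sham the log2 change was −1.65 ± 0.24 (SE; edgeR adjusted p = 0.046), and between STING KO RT and WT RT it was 1.48 ± 0.23 (edgeR adjusted p = 0.0875). The radiation call was lost without WT RT replicate 1 (log2 −1.50), without WT RT replicate 2 (log2 −1.87) and without WT Sham replicate 2 (log2 −1.63). It was also lost at a gate sum of at least 6 and with under 3 C1q UMIs. Leaving out members with a dendritic cell marker UMI, or those with 2 or more stromal UMIs, ended it too. Klf9 passed in 8 of 18 alternative runs of the radiation comparison.

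Retnla encodes a secreted resistin-like protein, a mark of alternatively activated macrophages in the mouse. Retnla (chr16:48842551-48844461, plus strand) had 264 and 349.9 CPM in STING KO RT, 102 and 84.2 CPM in WT RT, and 258 and 234 CPM in WT Sham. Retnla was lowest in the WT RT libraries. It fell by 1.42 ± 0.19 on the log2 scale between WT RT and WT Sham (SE; edgeR adjusted p = 0.046) and was higher in STING KO RT than in WT RT by 1.65 ± 0.19 (edgeR adjusted p = 0.0121). Very few cells carried these UMIs. They came from 14 and 42 members in STING KO RT, 7 and 17 in WT RT, and 7 and 9 in WT Sham, and in every library the top 3 cells held 82.6 to 97.7% of them. Neither call held without WT RT replicate 1 or replicate 2: the radiation values were then −1.57 and −1.26 (edgeR adjusted p = 0.454 and 0.235), and the genotype values 1.80 and 1.49 (edgeR adjusted p = 0.175 and 0.203). Leaving out members with a dendritic cell marker UMI also ended both calls (edgeR adjusted p = 0.625 for radiation and 0.483 for genotype). With members of under 3 C1q UMIs only, neither call held, and at a mitochondrial limit of 5% the genotype call was lost. Of 18 alternative runs, Retnla passed in 10 for radiation and in 12 for genotype.

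Vcam1 and Clu were called from a handful of sham cells. Vcam1 encodes an endothelial adhesion molecule that some macrophages also carry, and Clu the extracellular chaperone clusterin. Vcam1 (chr3:116109949-116129688, minus strand) had 4 and 0 UMIs in STING KO RT, 3 and 1 in WT RT, and 89 and 89 in WT Sham, and the sham UMIs came from 1 and 3 cells. The radiation call (edgeR adjusted p = 0.0107) was lost without WT RT replicate 1 (edgeR adjusted p = 0.285) and replicate 2 (edgeR adjusted p = 0.131). After the S100a8 and S100a9-rich cells were left out, WT Sham replicate 2 held 0 CPM of Vcam1 and the gene was not tested. Clu had 0 and 0 UMIs in STING KO RT, 0 and 1 in WT RT, and 19 and 38 in WT Sham, the sham UMIs from 2 cells in each library (edgeR adjusted p = 0.046). It was lost without WT RT replicate 1 (edgeR adjusted p = 0.504), WT RT replicate 2 (edgeR adjusted p = 0.235) and WT Sham replicate 2 (edgeR adjusted p = 0.212).

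**Figure D2:**
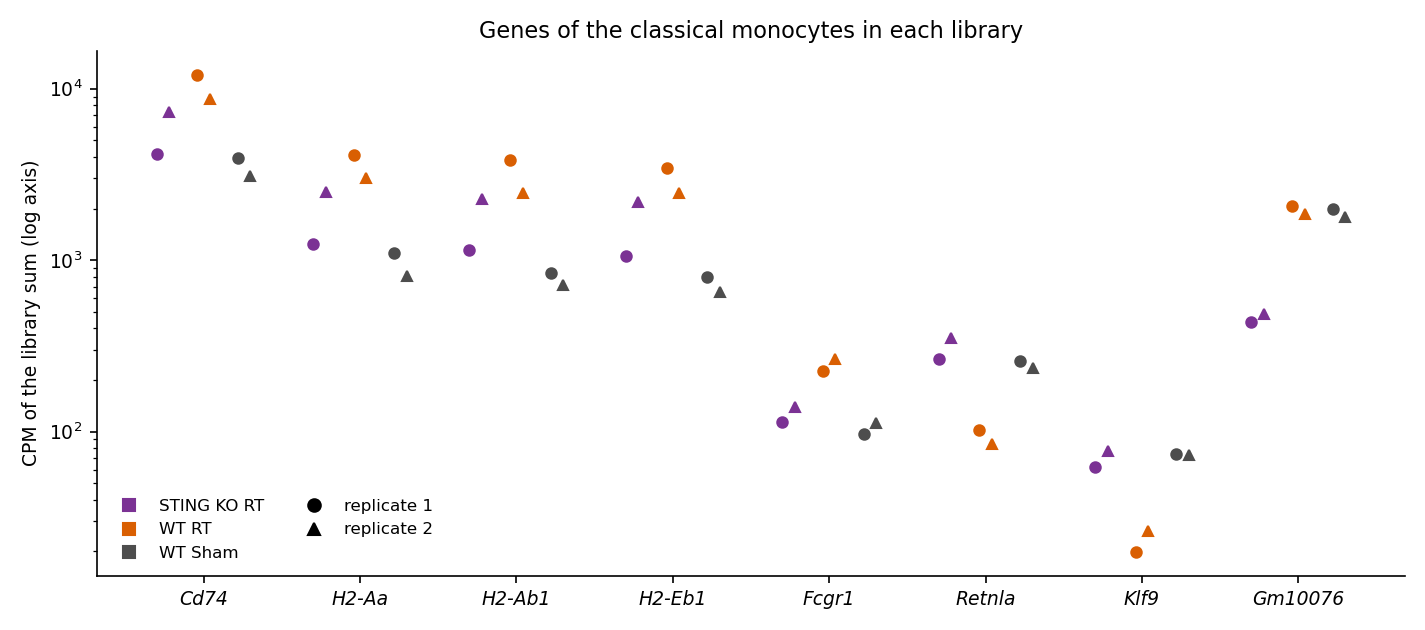
CPM in classical monocytes of each library (log axis; 1 point per library, STING KO RT, WT RT and WT Sham from left to right) for 8 genes. The WT RT libraries are the highest for Cd74, H2-Aa, H2-Ab1, H2-Eb1 and Fcgr1 and the lowest for Retnla and Klf9, and both STING KO RT libraries are the lowest for Gm10076.

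Most interferon-stimulated genes had positive values after irradiation and none passed the test. Of the 52 listed, 47 were tested, 43 had a positive log2 change between WT RT and WT Sham, and the median was 0.35 beside −0.02 over all genes tested, of which 48.6% were positive. An unadjusted p under 0.05 was found in 19 of the 47, all of them positive, beside 12.8% of all genes tested. The highest value was that of Phf11d, a gene of the interferon response chosen after its values were seen. It had 19.6 and 25.2 CPM in STING KO RT, 51.2 and 41.1 CPM in WT RT, and 11.9 and 9.70 CPM in WT Sham (log2 2.07 between WT RT and WT Sham, edgeR adjusted p = 0.0806). The 3 members of the list with the highest levels were Ifitm3, Ifi27l2a and Ly6e. Ifitm3, which blocks entry of enveloped viruses, had 4587 and 4197 CPM in STING KO RT, 4708 and 5549 CPM in WT RT, and 5186 and 4548 CPM in WT Sham (log2 0.06 between WT RT and WT Sham, edgeR adjusted p = 0.882). Ifi27l2a, a small mitochondrial protein gene of the interferon response, had 1342 and 1400 CPM in STING KO RT, 2635 and 1993 CPM in WT RT, and 1782 and 1635 CPM in WT Sham (log2 0.42, edgeR adjusted p = 0.314). Ly6e, a GPI-anchored surface protein gene, had a log2 change of 0.20 (edgeR adjusted p = 0.558). The list summed to 11104 and 11085 CPM in STING KO RT, 14256 and 14201 CPM in WT RT, and 12156 and 11108 CPM in WT Sham. WT RT held the most, and STING KO RT and WT Sham lay close together.

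The other lists of antigen presentation and interferon-γ response leaned the same way between WT RT and WT Sham. On the MHC class I list, 17 of 19 genes tested had positive values (median log2 0.39) and none was called. H2-D1, a class I heavy chain, had 1920.4 and 1951 CPM in STING KO RT, 2456 and 2484 CPM in WT RT, and 2202 and 2193 CPM in WT Sham. Its WT RT libraries lay above the other 4. On the interferon-γ list, 12 of 14 genes tested had positive values (median log2 0.50) and Fcgr1 was the 1 called. On the cell cycle list, 14 of 15 tested were positive (median log2 1.13) with none called, and the 5 cycling markers summed to 130 and 96.8 CPM in STING KO RT, 237 and 124 CPM in WT RT, and 117 and 84.9 CPM in WT Sham. Few cells carried several such UMIs: 7 of the 836 members had at least 3 of Mki67, Top2a, Birc5 and Cdk1 together. They numbered 1 and 2 in STING KO RT, 2 and 1 in WT RT, and 1 and 0 in WT Sham. Of the chemokines, 9 of 15 were positive (median log2 0.75) and none was called. Of the dendritic cell differentiation genes, 11 of 13 were positive (median log2 0.51) and none was called.

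Lists of monocyte identity and recruitment leaned the other way between WT RT and WT Sham. In the classical monocyte programme, which left out the gate's genes, 19 of 25 genes had negative values (median log2 −0.28), and the 1 call was Fcgr1, which rose. Fn1, which encodes the matrix protein fibronectin and was chosen after its values were seen, had 1272 and 1317 CPM in STING KO RT, 621 and 954 CPM in WT RT, and 1613 and 1089 CPM in WT Sham (log2 −0.79, edgeR adjusted p = 0.218). Among trafficking receptors and adhesion molecules, 16 of 20 tested were negative (median log2 −0.27), and 1 was called, which rose. Of the fibrosis-associated factors 14 of 17 tested were negative (median log2 −0.33), with none called. All 9 granule genes tested were negative, with a median log2 change of −3.35 and none called. That list follows the S100a8 and S100a9-rich cells: without them its median was −0.77 over 8 genes.

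The remaining lists had median log2 changes between −0.13 and 0.16 between WT RT and WT Sham. They were the p53 targets (−0.13 over 18 genes), NF-κB cytokines and regulators (−0.04 over 19), cytosolic DNA sensing (0.04 over 15), interferon receptors and signalling (0.06 over 16), pattern recognition receptors (−0.06 over 12), nonclassical programme (0.04 over 17), monocyte-to-macrophage and lipid genes (0.03 over 24), monocyte transcription factors (−0.12 over 21), glycolysis and hypoxia (0.11 over 21), dissociation stress (−0.12 over 25) and alternative activation (0.16 over 8). None of their genes was called but Retnla, which is on the alternative activation list and fell. The p53 targets were measured 28 days after irradiation. The best measured, Btg2, an antiproliferative gene, had 887 and 872 CPM in STING KO RT, 941 and 792 CPM in WT RT, and 841 and 1049 CPM in WT Sham. Cdkn1a, the cell cycle inhibitor p21, had 410.2 and 356 CPM in STING KO RT, 465 and 525 CPM in WT RT, and 402 and 398 CPM in WT Sham.

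**Figure D3:**
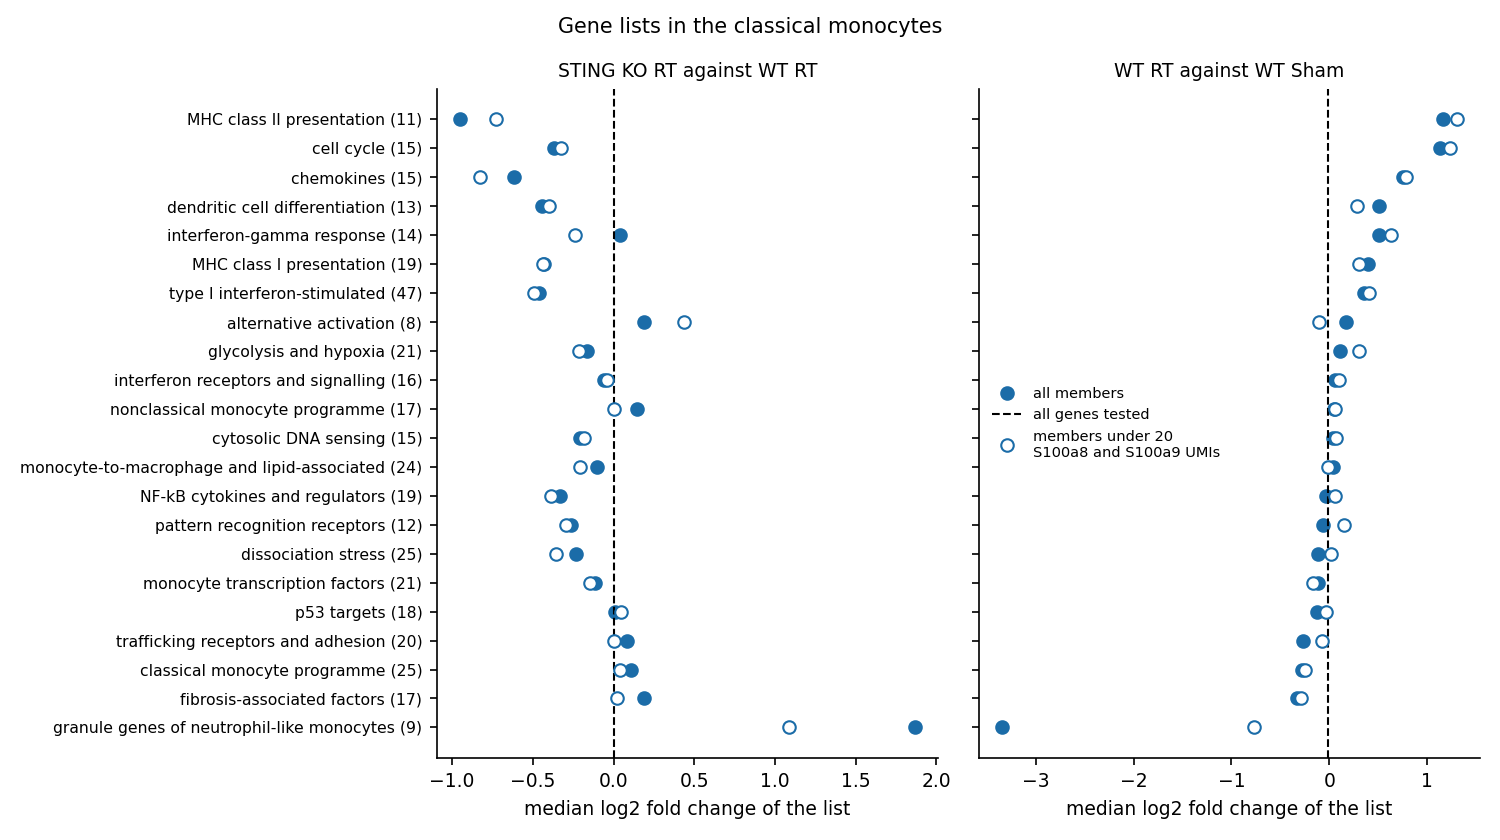
Median log2 change of the genes tested on each of 22 lists in classical monocytes, STING KO RT against WT RT (left) and WT RT against WT Sham (right). Filled points are all members, open points are members with under 20 UMIs of S100a8 and S100a9, and the dashed line is the median of all genes tested. MHC class II stands at −0.95 on the left and 1.16 on the right, and interferon-stimulated genes at −0.46 and 0.35.

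The cells rich in S100a8 and S100a9 moved single genes of the radiation comparison. Without them 17 of 7038 genes were called between WT RT and WT Sham (0.242%), and H2-Eb1, H2-Ab1, H2-Aa, Cd74, Klf9 and Retnla were among them. Il1b, which encodes the inflammatory cytokine interleukin-1β, had 2402 and 1555 CPM in STING KO RT, 3168 and 2444 CPM in WT RT, and 1202 and 3331 CPM in WT Sham over all members (log2 0.28, edgeR adjusted p = 0.815). Without those cells it had 1342 and 1134 CPM in STING KO RT, 2744 and 2394 CPM in WT RT, and 1045 and 1173 CPM in WT Sham. The WT RT libraries then stood above the other 4, and Il1b rose between WT RT and WT Sham (log2 1.23 ± 0.12, edgeR adjusted p = 0.00176). It was lower in STING KO RT than in WT RT (log2 −1.14 ± 0.12, edgeR adjusted p = 0.00163). Of 18 alternative runs, Il1b passed in 1 for radiation and in 2 for genotype. Apoe, which encodes the lipid carrier of macrophages, rose between WT RT and WT Sham by 0.77 on the log2 scale (edgeR adjusted p = 0.048), with the part of the macrophage markers in it not tested, and Cxcl16, a membrane-bound chemokine gene, by 2.86 (edgeR adjusted p = 0.0433), while Fn1 fell by 0.90 (edgeR adjusted p = 0.0433). Il1b, Apoe, Cxcl16 and Fn1 were chosen after their values were seen.

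Between the libraries labelled STING knockout and wild type, both irradiated, classical monocytes differed in 3 genes of 7330 tested (0.0409%), among them Retnla and Gm10076. Retnla rose, as given above, and Gm10076 fell, while 929 genes (12.7%) had an unadjusted p under 0.05. The WT RT libraries serve in this comparison and in the one with sham, so the 2 sets of values share them. Gm10076 (chr14:105681828-105682211, plus strand), annotated as a long intergenic non-coding RNA, had 438 and 484 CPM in STING KO RT, 2072 and 1862 CPM in WT RT, and 1976 and 1789 CPM in WT Sham. Both knockout libraries lay below the other 4. The log2 change was −2.17 ± 0.13 (SE; edgeR adjusted p = 0.000102), and it passed in every alternative run. Its count is uncertain where reads could be shared with near-identical copies of its sequence.

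The Gm10076 difference was not particular to classical monocytes. Between STING KO RT and WT RT, Gm10076 had a log2 change of −2.08 in nonclassical monocytes (edgeR adjusted p = 0.000977) and −2.25 in C1q macrophages (edgeR adjusted p = 0.00263).

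Interferon-stimulated genes were on the low side in the STING KO RT libraries, and single genes passed the test once the S100a8 and S100a9-rich cells were left out. Between STING KO RT and WT RT, 46 of the 47 genes tested had negative values with a median log2 change of −0.46 beside 0.00 over all genes tested, of which 50.1% were positive. None of the 47 was called, and 22 had an unadjusted p under 0.05, beside 12.7% of all genes tested. Rtp4, a chaperone gene of the interferon response, had 55.8 and 49.2 CPM in STING KO RT, 119 and 132 CPM in WT RT, and 49.0 and 76.4 CPM in WT Sham (log2 −1.35, edgeR adjusted p = 0.0875). Irf7, the transcription factor that amplifies type I interferon, had 110.1 and 143 CPM in STING KO RT, 235 and 239 CPM in WT RT, and 135 and 154 CPM in WT Sham (log2 −0.98, edgeR adjusted p = 0.0908). In both genes the 2 WT RT libraries were the highest and the STING KO RT and WT Sham libraries overlapped. Without the S100a8 and S100a9-rich cells 8 of the 47 genes fell, against 0.625% of all genes tested, Rtp4 by 1.36 (edgeR adjusted p = 0.0129) and Irf7 by 0.99 (edgeR adjusted p = 0.0209) on the log2 scale. Others of the 8 were Cxcl10, the chemokine of CXCR3+ T cells (log2 −1.98, edgeR adjusted p = 0.0139), Oas1a, a sensor of double-stranded RNA (edgeR adjusted p = 0.0297), Ifi27l2a (log2 −0.85, edgeR adjusted p = 0.0129) and Ms4a4c (log2 −0.64, edgeR adjusted p = 0.0208). Of 18 alternative runs, Rtp4 passed in 7 and Irf7, Cxcl10, Ifi27l2a and Ms4a4c in 6 each, and Oas1a passed in 5 of 17. Members of at least 2000 UMIs, S100a8 and S100a9-rich cells included, were also thinned to 2000. The median one held 21 and 21 UMIs of the list in STING KO RT and 29 and 27 in WT RT. In WT Sham it held 25 and 21. Few of these thinned members carried Cxcl10: 5.84 and 4.31% in STING KO RT, 12.9 and 9.82% in WT RT, and 4.72 and 1.94% in WT Sham. The genes named for the interferon list here, apart from Ifi27l2a, were chosen after their values were seen.

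**Figure D4:**
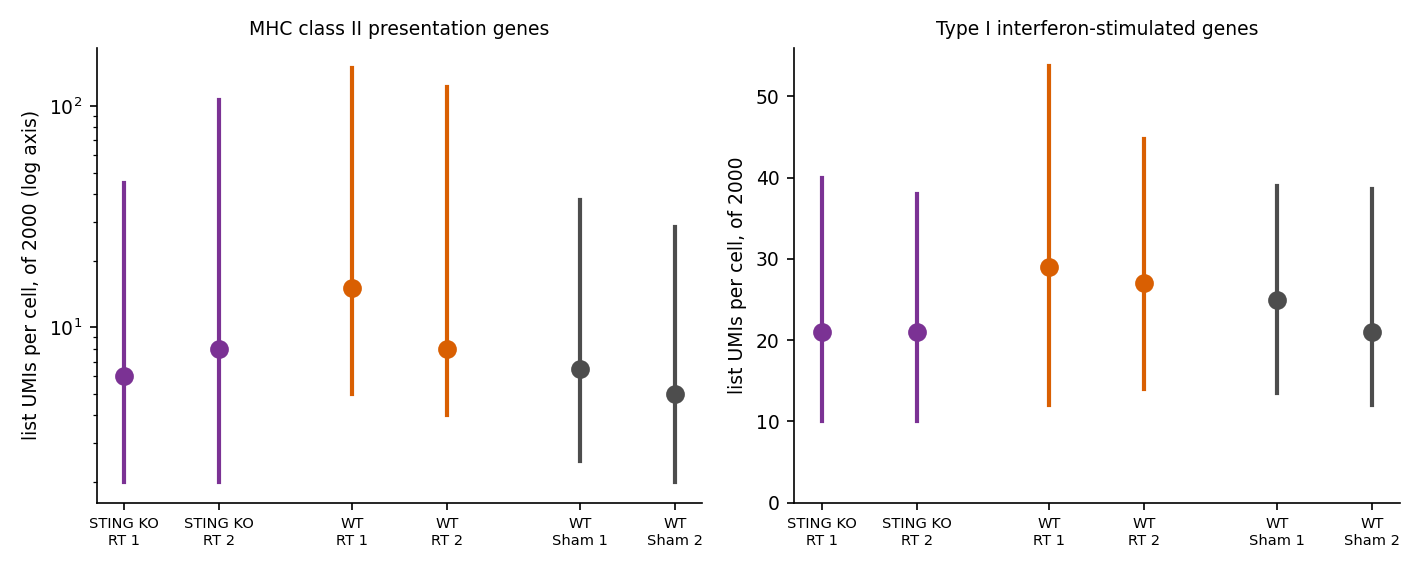
UMIs of the MHC class II list (left, log axis) and of the interferon-stimulated list (right) per classical monocyte thinned to 2000 UMIs, by library in the order STING KO RT, WT RT and WT Sham. Points are medians over members and bars run from the 10th to the 90th percentile. WT RT replicate 1 has the highest median of MHC class II at 15 UMIs, and the 2 WT RT libraries have the highest medians of the interferon list at 29 and 27 UMIs.

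Promoters of 2 of these genes are shown for the interferon-stimulated response element, the site of the transcription factor complex that type I interferon activates. The windows are 120 bases around the matches from RefSeq (build GRCm38.p6), 5′ to 3′ on the gene's strand, and capitals mark matches on either strand to GAAANNGAAA. Cxcl10 lies at chr5:92349000-92349119 (minus strand) and Oas1a at chr5:120907496-120907615 (minus strand).
Cxcl10: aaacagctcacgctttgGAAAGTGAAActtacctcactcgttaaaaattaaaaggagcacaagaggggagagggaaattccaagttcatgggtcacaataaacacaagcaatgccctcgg
Oas1a: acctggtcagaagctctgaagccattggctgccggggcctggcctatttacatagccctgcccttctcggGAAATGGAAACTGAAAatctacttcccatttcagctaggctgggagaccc

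The pattern begins 213 bases before the start of Cxcl10, and in Oas1a 2 overlapping matches begin 20 and 14 bases before it. It occurs in 3.44% of 32851 RefSeq promoters of 300 bases and in 21 of the 39 genes of the interferon-stimulated list with a promoter in the table. On the MHC class I list 5 of 16 promoters held it. The pattern is the core of the element, and its presence describes these letters only.

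Other lists in STING KO RT against WT RT gave no calls but Retnla. MHC class II had negative values in 10 of 11 genes (median log2 −0.95), and STING KO RT replicate 2 lay near WT RT replicate 2 in H2-Ab1 and H2-Eb1 (log2 −0.96 each, edgeR adjusted p = 0.237 each). MHC class I had negative values in 17 of 19 (median log2 −0.43). Chemokines had negative values in 13 of 15 (median log2 −0.61). Ccl4, a gene of a monocyte-attracting chemokine chosen after its values were seen, had 607 and 941 CPM in STING KO RT, 1866 and 1245 CPM in WT RT, and 1099 and 1108 CPM in WT Sham (log2 −1.09, edgeR adjusted p = 0.138). The STING KO RT libraries were the lowest. NF-κB cytokines and regulators had negative values in 15 of 19 (median log2 −0.33), glycolysis and hypoxia genes in 18 of 21 (median log2 −0.16), dissociation stress genes in 19 of 25 (median log2 −0.23) and cell cycle genes in 13 of 15 (median log2 −0.37). The granule genes were positive in 9 of 9 (median log2 1.87), which is the list carried by the S100a8 and S100a9-rich cells. Hmox1, the heme-degrading enzyme gene, was also chosen after its values were seen. It had 133 and 84.8 CPM in STING KO RT, 239 and 295.5 CPM in WT RT, and 154 and 114 CPM in WT Sham (log2 −1.38, edgeR adjusted p = 0.0883). Without the S100a8 and S100a9-rich cells Hmox1 fell (log2 −1.41, edgeR adjusted p = 0.00927).

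Between STING KO RT and WT Sham, which differ in genotype and in irradiation, 4 of 7330 genes were called (0.0546%), 1 higher and 3 lower, and 533 genes (7.27%) had an unadjusted p under 0.05. Gm10076 fell by 2.12 ± 0.13 on the log2 scale (SE; edgeR adjusted p = 0.000126), and Vcam1 (edgeR adjusted p = 0.000874) and Clu (edgeR adjusted p = 0.0152) fell from the UMIs of the few sham cells given above. Clu did not pass without STING KO RT replicate 2 (edgeR adjusted p = 0.056), WT RT replicate 1 (edgeR adjusted p = 0.067), WT RT replicate 2 (edgeR adjusted p = 0.059) or WT Sham replicate 2 (edgeR adjusted p = 0.086). AY036118 (chr17:39847113-39848035, minus strand), annotated as a long intergenic non-coding RNA, had 63.8 and 91.1 CPM in STING KO RT, 28.4 and 19.6 CPM in WT RT, and 17.8 and 12.1 CPM in WT Sham. The STING KO RT libraries were the highest. AY036118 rose by a log2 change of 2.29 ± 0.31 (SE; edgeR adjusted p = 0.0479), which did not pass without STING KO RT replicate 2 (log2 2.02, edgeR adjusted p = 0.285), WT RT replicate 1 (edgeR adjusted p = 0.0858), WT RT replicate 2 (edgeR adjusted p = 0.0696) or WT Sham replicate 2 (edgeR adjusted p = 0.0686). It overlaps Gm42418 on the opposite strand, and how the counting treated strand is not stated, so their reads cannot be told apart. The same order stood in the other cells: AY036118 had 126 and 72.6 CPM in the nonclassical monocytes of STING KO RT against 16.6 to 26.8 CPM in those of the other 4 libraries, and 103 and 99.0 CPM in the C1q macrophages of STING KO RT against 23.8 to 29.0 CPM in the others.

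The lists divided in this comparison. Interferon-stimulated genes were positive in 20 and negative in 27 of the 47 tested (median log2 −0.07), and MHC class I genes had a median of −0.05. MHC class II genes were positive in 10 of 11 (median log2 0.60). None of these genes was called. Dissociation stress genes were negative in 23 of 25 (median log2 −0.33). Actb, which encodes β-actin and was chosen after its values were seen, had 12716 and 15495 CPM in STING KO RT, 8876 and 8862 CPM in WT RT, and 7495 and 7772 CPM in WT Sham. The STING KO RT libraries were the highest (log2 0.79 against WT Sham, edgeR adjusted p = 0.0644), and Actb passed without the S100a8 and S100a9-rich cells (edgeR adjusted p = 0.0014). In C1q macrophages too the STING KO RT libraries were the highest, at 12131 and 14056 CPM against 6877 to 8472 CPM in the other 4, and in nonclassical monocytes at 10636 and 13386 CPM against 7332 to 8546 CPM.

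The radiation response of classical monocytes was set against that of C1q macrophages and nonclassical monocytes of the same libraries by the interaction of cell type and group, with the library as a block. Against C1q macrophages 117 of 12331 genes differed in their response (0.949%), 34 higher and 83 lower in classical monocytes. Of the 12 MHC class II genes 4 were higher and none lower (median difference 0.84 beside −0.01 over all genes tested), against 0.276% of all genes. Of the 5 endothelial markers Pecam1 was among the 83, and all 5 had negative differences. Of the 5 erythroid markers Hba-a2, a haemoglobin gene, was among the 83, and all 5 had negative differences. H2-Ab1 had a log2 change of 2.00 in classical monocytes and of 0.28 in macrophages (edgeR adjusted p = 0.259 in macrophages), a difference of 1.74 ± 0.19 (SE; edgeR adjusted p = 1.22e-06), and the differences of H2-Eb1, H2-Aa and Cd74 were 1.72 (edgeR adjusted p = 2.21e-06), 1.66 (edgeR adjusted p = 2.43e-06) and 1.37 (edgeR adjusted p = 8.25e-06). Macrophages held H2-Ab1 at a higher level throughout, 5352 and 5656 CPM in STING KO RT, 7355 and 5585 CPM in WT RT, and 5947 and 4846 CPM in WT Sham. Apoe had a log2 change of 0.86 in classical monocytes, where it was not called over all members. It fell by 0.66 in macrophages (edgeR adjusted p = 0.00648 in macrophages), a difference of 1.55 ± 0.15 (SE; edgeR adjusted p = 2.99e-07). Macrophages held Apoe at 11203.5 to 20347 CPM and classical monocytes at 1131 to 2541 CPM. The part of macrophage transcripts among the members in this difference was not tested.

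Interferon-stimulated genes differed in the other direction. In macrophages 38 of the 50 tested rose between WT RT and WT Sham and none fell (median log2 0.94), against 4.22% of all genes tested there. The sums held 93 to 209 classical monocytes and 1385 to 2170 macrophages per library. In the test of the difference 7 of 50 were lower in classical monocytes and none higher (median −0.40), against 0.673% of all genes. These were Cmpk2, Irf7, Isg20, Ms4a4c, Oas3, Rsad2 and Slfn1. Irf7 had 43.8 and 69.1 CPM in the macrophages of STING KO RT, 212 and 161 CPM in those of WT RT, and 40.3 and 42.1 CPM in those of WT Sham. The WT RT libraries stood above the other 4. Its log2 change was 2.19 ± 0.23 in macrophages (edgeR adjusted p = 0.00648), and that of classical monocytes was lower by 1.43 ± 0.20 (SE; edgeR adjusted p = 8.26e-05). Classical monocytes of sham hearts already held 135 and 154 CPM of Irf7. Ms4a4c changed by 2.42 ± 0.25 in macrophages (edgeR adjusted p = 0.00643), and classical monocytes were lower in their change by 1.74 ± 0.21 (SE; edgeR adjusted p = 4.8e-06). Retnla had a log2 change of 0.39 in macrophages (edgeR adjusted p = 0.12) and fell in classical monocytes, a difference of −1.77 ± 0.19 (SE; edgeR adjusted p = 1.22e-06). Vcam1, whose sham UMIs in classical monocytes came from 4 cells, differed by −5.32 ± 0.50 (SE; edgeR adjusted p = 1.8e-07). With a mitochondrial limit of 5%, which left fewer cells, the differences in H2-Eb1 (edgeR adjusted p = 0.091), H2-Aa (edgeR adjusted p = 0.0854), Cd74 (edgeR adjusted p = 0.111), Irf7 (edgeR adjusted p = 0.229), Ms4a4c (edgeR adjusted p = 0.269) and Retnla (edgeR adjusted p = 0.529) did not pass, and 3 genes were called in all. These genes were chosen after their values were seen, apart from those already named by the rule.

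Against nonclassical monocytes 2 of 8358 genes differed in their response to radiation (0.0239%), Mmp12 and Basp1. The 7 neutrophil markers summed to 29646 and 15958 CPM in the nonclassical monocytes of STING KO RT, 7608 and 14586 CPM in those of WT RT, and 14219 and 64791 CPM in those of WT Sham, and their part in the differences was not tested. Mmp12, the macrophage elastase gene, differed by −5.27 ± 0.64 (SE; edgeR adjusted p = 0.0235). In nonclassical monocytes it had 5.36 and 4.31 CPM in STING KO RT, 22.3 and 91.1 CPM in WT RT, and 1.34 and 1.95 CPM in WT Sham, and in classical monocytes it was found in 1 to 11 cells per library. The Mmp12 difference did not pass without WT RT replicate 1 (log2 −5.51, edgeR adjusted p = 0.0518), WT RT replicate 2 (log2 −4.69, edgeR adjusted p = 0.112) or WT Sham replicate 2 (log2 −4.93, edgeR adjusted p = 0.165). Basp1, a membrane-associated signalling protein gene, differed by 1.82 ± 0.23 (SE; edgeR adjusted p = 0.0235), and by 0.58 (edgeR adjusted p = 0.863) without the S100a8 and S100a9-rich cells of both types. It was also lost without WT RT replicate 1 (log2 1.68, edgeR adjusted p = 0.426) and WT RT replicate 2 (log2 1.95, edgeR adjusted p = 0.0663). MHC class II genes did not pass in this comparison over all cells, with a difference of 1.40 in H2-Eb1 (edgeR adjusted p = 0.227) and 1.38 in H2-Ab1 (edgeR adjusted p = 0.259). All 11 had positive differences (median 0.96 beside −0.02 over all genes tested). H2-Ab1 had 787 and 1300.0 CPM in the nonclassical monocytes of STING KO RT, 1164 and 1597 CPM in those of WT RT, and 860.0 and 845 CPM in those of WT Sham. Without the S100a8 and S100a9-rich cells the difference in H2-Eb1 was 1.54 (edgeR adjusted p = 0.0346). Interferon-stimulated genes had no call in this comparison (median difference 0.12 over 47 genes).

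**Figure D5:**
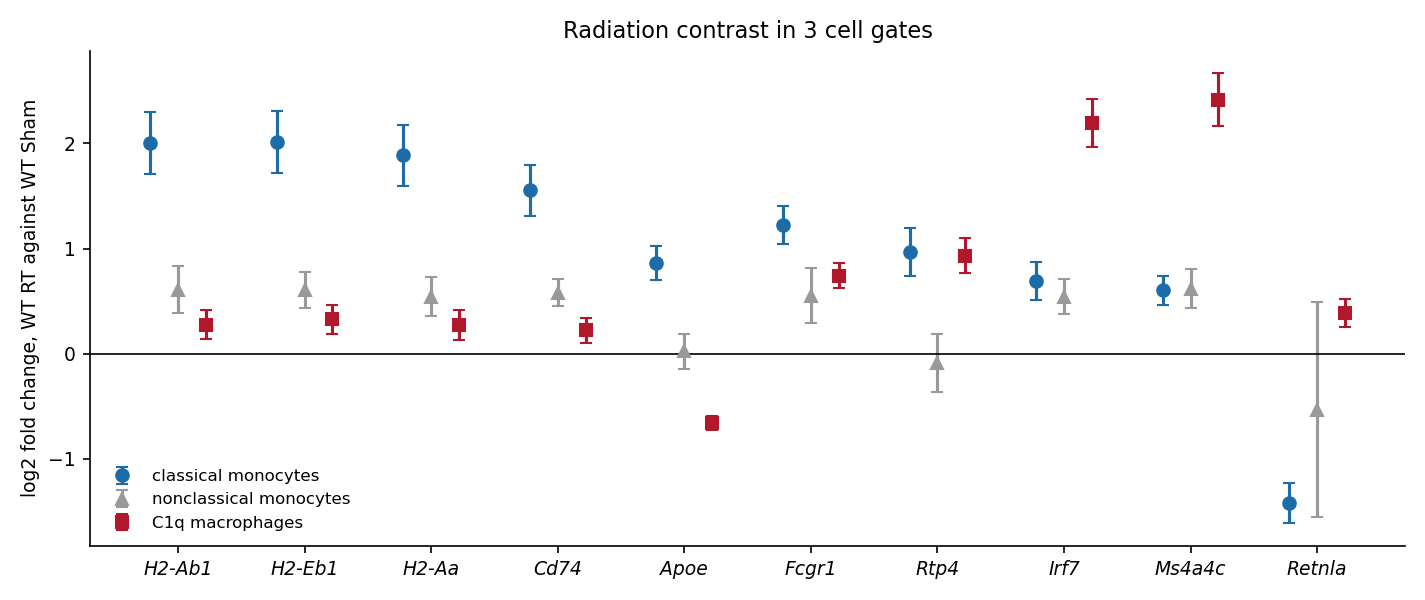
Log2 change between WT RT and WT Sham (point, with its SE as bar) of 10 genes in classical monocytes, nonclassical monocytes and C1q macrophages. Classical monocytes stand highest for H2-Ab1 (2.00 against 0.28 in macrophages), and macrophages stand highest for Irf7 (2.19) and Ms4a4c (2.42).

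The effect of the genotype was set against the same cells. Against nonclassical monocytes 1 of 8358 genes differed between STING KO RT and WT RT in its effect (0.012%), Mmp12, by 5.08 ± 0.44 (SE; edgeR adjusted p = 0.000699). The top 3 cells held 82.2 to 100% of the Mmp12 UMIs of classical monocytes in each library. It did not pass without WT RT replicate 2 (log2 4.49, edgeR adjusted p = 0.0522) or without STING KO RT replicate 1 (log2 4.29, edgeR adjusted p = 0.0512). Against C1q macrophages 18 of 12331 genes differed (0.146%), 14 higher and 4 lower in classical monocytes. Of the 5 endothelial markers 3, Cdh5, Fabp4 and Gpihbp1, were among the 14, and STING KO RT replicate 1 held the most of these markers at 856 CPM. Their part in the other differences was not tested. Retnla differed by 1.51 ± 0.18 (SE; edgeR adjusted p = 4.37e-05), though not without WT RT replicate 2 (log2 1.30, edgeR adjusted p = 0.0574). Its macrophage levels were 1475 and 1920 CPM in STING KO RT, 1330 and 1538 CPM in WT RT, and 1069 and 1136 CPM in WT Sham, above those of classical monocytes in every library. Klf9 differed by 1.37 ± 0.28 (SE; edgeR adjusted p = 0.0389), but its call was lost without WT RT replicate 1 (edgeR adjusted p = 0.0778), WT RT replicate 2 (log2 0.99, edgeR adjusted p = 0.982) or STING KO RT replicate 2 (log2 1.12, edgeR adjusted p = 0.143). Interferon-stimulated genes had no call in this difference, with positive values in 36 of 50 (median 0.23 beside 0.05 over all genes tested), and MHC class II genes had none either, with negative values in 11 of 12 (median −0.61).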

How the data were processed

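The files used are the filtered gene by barcode matrices of 6 libraries, which hold raw UMI counts as deposited by the authors. Per the file headers and the submitters' processing notes they were made with Cell Ranger 5.0.0, and the notes name build mm10 and Seurat 3 without their roles. How the counting treated strand is not stated there. Cells with at least 200 genes and at most 10% of UMIs from mt- genes were kept, and no cell clustering was run: cells were taken by gates on raw UMIs. The members, the comparison cells and the 22 gene lists were chosen with earlier results of these data known.

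UMIs of the members were summed per library and divided by the sum to give CPM. edgeR 4.0.16 (R 4.3.3, limma 3.58.1) fitted 1 model to the 6 sums of 3 groups, with filterByExpr, TMM, glmQLFit and glmQLFTest, which left 3 residual degrees of freedom. Benjamini-Hochberg adjustment ran over all 7341 genes that passed the filter, 11 of them gate genes that were left out of the counts. Interactions were fitted on 2 sums per library with the library as a block. Shares were compared by two-sided exact permutation tests (scipy 1.17.1), for which 2 against 2 libraries cannot go below 0.333. Genes named are all those called where fewer than 10 were, except 2 that are not reported here, called list members up to 4 per list, and for lists with none called those of the 3 highest mean CPM. Others are said to have been chosen after their values were seen. Scripts were tested on simulated counts.

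Scrublet in scanpy 1.11.5 (Python 3.11.15) marked doublets at an assumed rate of 0.8% per 1000 cells, since its own threshold marked 0 to 3 cells per library, and their removal was an alternative only. Other alternatives were DESeq2 1.42.0 and its size factors, no filter on low counts, only the 4 libraries compared, each library left out, a replicate block, a mitochondrial limit of 5%, a gate sum of at least 6, and under 3 C1q UMIs. Coordinates and gene types come from GENCODE vM21 (GRCm38), matched by Ensembl ID, and promoter sequences from RefSeq (GRCm38.p6), matched by symbol.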

Additional observations from a re-analysis of the deposited data

Results flagged for a closer look

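The responses of classical monocytes and of other cells of the same libraries were tested for a difference gene by gene. Those below passed (edgeR quasi-likelihood interaction, Benjamini-Hochberg adjusted p under 0.05). They are a selection and not a full list: other genes named above, such as Rsad2, Pecam1 and Cdh5, passed too. All values are log2 differences between classical monocytes and the other cell type.

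In the radiation effect against C1q macrophages, the differences were 1.74 in H2-Ab1, 1.72 in H2-Eb1, 1.66 in H2-Aa and 1.37 in Cd74, the MHC class II genes. Apoe differed by 1.55. Retnla differed by −1.77, Ms4a4c by −1.74, Irf7 by −1.43 and Vcam1 by −5.32. Against nonclassical monocytes the differences were −5.27 in Mmp12 and 1.82 in Basp1.

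In the genotype effect, the difference against nonclassical monocytes was 5.08 in Mmp12. Against C1q macrophages it was 1.51 in Retnla, 1.37 in Klf9 and −1.16 in Tnfsf9, the gene of the costimulatory ligand 4-1BBL. Cav1, the gene of the caveolar coat protein of endothelial cells, differed by 4.55, and Fabp4, an endothelial and adipocyte fatty acid carrier, by 2.95. Cav1 had 55.1 and 23.5 CPM in STING KO RT, 1.42 and 1.96 CPM in WT RT, and 28.2 and 13.3 CPM in WT Sham, and it was found in at most 11 members of a library. Fabp4 had 750.0 and 144 CPM in STING KO RT, 68.3 and 16.6 CPM in WT RT, and 182 and 76.4 CPM in WT Sham, and its top 3 cells held 94.7% of its UMIs in STING KO RT replicate 1. Without WT RT replicate 2 the differences of Cav1 (log2 4.09, edgeR adjusted p = 0.189), Fabp4 (log2 1.59, edgeR adjusted p = 0.982) and Tnfsf9 (edgeR adjusted p = 0.204) did not pass.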

How the results depend on the processing

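There were 956 values recomputed for 62 results, each a gene or list in 1 comparison, so some genes and lists entered more than once. Of the 956 values, 738 kept their direction and side of the threshold, 113 no longer passed, 100 newly passed, 4 moved in size and 1 turned. The one that turned was Il1b in the radiation effect, with −0.30 (edgeR adjusted p = 0.567) without WT Sham replicate 1 and 1.24 without WT Sham replicate 2. The share of classical monocytes turned in the genotype difference at a mitochondrial limit of 5%, to −0.984 percentage points. Its differences ranged over libraries left out from 0.379 to 1.00 for radiation, 0.00818 to 0.731 for genotype and 0.698 to 1.42 for STING KO RT against WT Sham.

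Counts of called genes depended on the settings, and the cause was not tested. For radiation, 8 genes became 23 with DESeq2, 374 when low counts were not filtered, 14 in a fit of the 4 libraries compared, 2 at the 5% mitochondrial limit, 0 at a gate sum of at least 6 (also 1 under 3 C1q UMIs), 17 without S100a8 and S100a9-rich cells and 5 without members with 2 or more stromal UMIs, and ranged from 0 to 219 over libraries left out. For genotype, 3 became 30 with DESeq2, 272 without a filter, 72 with 4 libraries, 1 at 5%, and 68 without S100a8 and S100a9-rich cells, with 1 to 100 over libraries left out. For STING KO RT against WT Sham, 4 became 13 with DESeq2, 187 without a filter, 1 at a gate sum of at least 6 and 33 without S100a8 and S100a9-rich cells, with 3 to 137 over libraries left out. Among the fits that left out 1 library, the highest counts came without WT Sham replicate 1, at 219, 100 and 137.

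Counts of differences between cell types were, at 5% mitochondrial UMIs, 0 against nonclassical monocytes and 3 against C1q macrophages for radiation, and 0 against either for genotype. Without a filter they were 66 and 227 for radiation and 38 and 84 for genotype, nonclassical monocytes first, and without S100a8 and S100a9-rich cells they were 11 for radiation against nonclassical monocytes, 3 for genotype against them and 29 for genotype against macrophages. Over libraries left out they ranged, against nonclassical monocytes, from 0 to 11 for radiation and 0 to 4 for genotype, and against macrophages from 37 to 189 for radiation and 0 to 82 for genotype. The settings on S100a8 and S100a9, dendritic and stromal markers were added after seeing the data.

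Replicate numbers did not pair the libraries: deviations of same-numbered libraries correlated at −0.10, −0.17 and −0.03. With the replicate block 2 genes were called for radiation, 6 for genotype and 3 for STING KO RT against WT Sham.

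With 2 libraries a group and 93 to 209 members in each, genes carried by few cells rest on single cells.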
